A study of Drosophila melanogaster with 16 samples.

Results

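The genes described here belong to enzyme families that include digestive enzymes of the Drosophila midgut. Their RNA was followed in whole single embryos with a mutation in Asx or Sce, so expression in the midgut was not shown. The genes were taken by symbol, under a rule chosen with earlier results of these data known. The rule takes symbols that start with Jon and a digit, with Mal-A, Mal-B, Amy or LManI, or with Lys and 1 capital letter. It also takes symbols that end in Try. Of 50 such symbols among 13754 genes, 2 (Jon66Cii and epsilonTry) had a mean normalized count of 0 in both tables of the study, and the other 48 are the members. They comprise 15 Jonah proteases, 10 trypsins, 10 maltases, 3 amylases, 4 alpha-mannosidases and 6 lysozymes. The spelling of the rule takes LManI to LManIV but not LManV and LManVI, which are given below as neighbours.

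The larval midgut secretes enzymes into its lumen that break food down into absorbable units. Jonah proteins and trypsins are serine proteases that cut dietary protein. Amylases cut starch, and maltases are alpha-glucosidases that release glucose from the resulting oligosaccharides. Alpha-mannosidases of the lysosomal type remove mannose from glycans, and the lysozymes of this gene family are known in flies mainly as digestive enzymes that open bacterial cell walls. Many of these genes lie in tandem groups, and several are switched on in the midgut before the embryo hatches and begins to feed.

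Poly(A) RNA of single embryos at stage 16, collected at 15 to 16 h of age, was sequenced, one library per embryo. In the first comparison 5 Asx0 embryos stood against 3 wild-type embryos. Asx is the subunit of PR-DUB, the complex that removes the H2Aub1 mark, without which its deubiquitinase Calypso does not work, and Asx0 is a null allele (Asx22P4). These embryos were homozygous offspring of heterozygous parents that carried w, an FRT chromosome and a GFP-marked balancer, recognised by the lack of GFP, so that maternal Asx product was still supplied. In the second comparison 4 SceI48A embryos stood against 4 other wild-type embryos. Sce is the ubiquitin ligase of PRC1, and SceI48A is a catalytically inactive form, here made from an inserted transgene in animals with Sce null chromosomes, so that both the maternal and the zygotic protein was mutant. The stock of these embryos carried w and further markers and inserts, including nos-Gal4 and UAS-Flp. All 7 wild-type embryos were Oregon-R. The authors picked the embryos from a larger set by principal component analysis and morphology. Unmutated embryos of the mutant stocks were not measured here, so stock background and mutation cannot be told apart.

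Each table gives a log2 normalized count per embryo. No read totals were given, which leaves the sequencing depth unknown, and no counting interval can be had. Values of genes with few reads are drawn towards the mean of the gene on this scale, so that log2 differences understate their change. The same can hold for genes with more reads, so folds are given on this scale only. The 2 tables were normalized separately, and tests were made only within a table. A gene was tested when its mean normalized count over the embryos of a table was at least 10, and called when the limma adjusted p was under 0.05. The 48 members comprised 21 tested and 27 low genes in the first table, and 24 tested and 24 low genes in the second.

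The highest levels came from 1 maltase, 1 mannosidase, 1 trypsin and 1 Jonah gene. Levels of different genes were compared only per kb of exon, as log2 normalized counts of wild-type embryos. In the first table Mal-A3 stood highest at 10.51, followed by LManII at 9.65, lambdaTry at 9.47 and Jon65Aiii at 9.43. The gaps between LManII and lambdaTry and between lambdaTry and Jon65Aiii were smaller than the joint SD of the neighbours. In the second table Mal-A3 again stood highest at 10.28, and Jon65Aiii at 9.90, LManII at 9.66 and lambdaTry at 9.43 followed, each gap larger than the joint SD. Mal-A2 came next in both tables, at 9.0 and 8.34, and was followed by kappaTry at 8.71 and 8.25, a gap smaller than the joint SD in the second table. At the low end stood Amy-d at 3.51 in the first table and Mal-A8 at 3.06 in the second. The protease families also held many genes with few reads. Of the 10 trypsins, 6 passed the filter in each table, and of the 15 Jonah genes, 3 passed it in the first table and 4 in the second.

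In Asx0 embryos 8 of the 21 tested genes were lower than in wild type and 1 was higher. The lower genes were the proteases Jon65Aiii, Jon65Aiv and lambdaTry, the maltases Mal-A3, Mal-A4 and Mal-A5, the amylase Amy-p and the mannosidase LManIII, and the higher gene was the mannosidase LManI. Jon65Aiii and Jon65Aiv differed by more than 2-fold. Among all 10212 genes tested here, 6.15% were called lower and 5.19% higher, and 0.313% were called lower with a fold above 2. The share of tested members called lower was 38.1%, in a list chosen with earlier results of these data known. In 8 of the 21 genes every Asx0 embryo was below every wild-type embryo, and in 1 every Asx0 embryo was above, against 10.3% and 9.79% of all tested genes. The median log2 difference of the 21 genes was -0.07, beside -0.00019 over all tested genes, and 15 of the 21 differences were negative. Without Asx0 embryo 1 or 3 or wild-type embryo 2, the count of lower genes was 5. In RNA from whole embryos, fewer cells of a type and less RNA per cell cannot be told apart.

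Jon65Aiii (FBgn0035665), a Jonah protease gene on chromosome arm 3L from 6050757 to 6051690 (plus strand, 2 exons, dm6), had the largest difference of the members. In the wild-type embryos 1 to 3 it stood at 9.47, 8.86 and 9.39 on the log2 scale, and in Asx0 embryos 1 to 5 at 7.01, 7.22, 6.85, 6.98 and 7.04. All 5 mutant embryos lay far below the lowest wild-type embryo. The log2 difference was -2.22 (SE 0.13, limma adjusted p = 2.87e-06), a ratio of wild type to Asx0 of 4.66 on this scale. Jon65Aiv (FBgn0250815), a second Jonah gene of the same tandem group (3L from 6039155 to 6040135), stood at 7.28, 6.93 and 6.13 in wild type and at 5.69, 5.70, 5.67, 5.61 and 5.88 in Asx0. The groups did not overlap, but the wild-type embryos spread over more than 1 log2 unit, an SD larger than that of 99.4% of tested genes, and embryo 3 came close to the mutants. Its log2 difference was -1.07 (SE 0.19, limma adjusted p = 0.00496), and its call held on leaving out each wild-type embryo, with differences of -0.82 without embryo 1, -0.99 without embryo 2 and -1.39 without embryo 3, so that the fold was below 2 without embryo 1 or 2. The third tested Jonah gene, Jon25Biii, stood at 3.72, 3.71, 3.78, 3.80 and 3.77 in Asx0 and at 3.74, 3.63 and 3.63 in wild type. Its groups overlapped, and its log2 difference of 0.09 did not pass the test (limma adjusted p = 0.129).

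Of the 6 tested trypsins only lambdaTry was called. lambdaTry (FBgn0043470; chromosome arm 2R from 11336840 to 11337791) stood at 9.57, 9.33 and 9.29 in wild type and at 8.58, 8.58, 8.80, 8.50 and 8.62 in Asx0. The groups were apart by more than the whole range of either, with a log2 difference of -0.78 (SE 0.08, limma adjusted p = 0.000171). kappaTry, which lies a few bases from the end of lambdaTry on the opposite strand, stood at 8.73, 8.74 and 8.37 in wild type and at 8.71, 8.65, 8.86, 8.70 and 8.84 in Asx0, with overlapping groups and a log2 difference of 0.14 (limma adjusted p = 0.359). The library kit that the methods name does not mark strand, so reads from where such genes meet cannot be assigned by strand. zetaTry had a log2 difference of -0.30 (limma adjusted p = 0.0911). It was -0.44 (limma adjusted p = 0.0123) without wild-type embryo 3 and -0.17 (limma adjusted p = 0.295) without wild-type embryo 1. The other trypsins tested, etaTry, iotaTry and alphaTry, had log2 differences between -0.06 and 0.05.

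Among the maltases Mal-A3, Mal-A4 and Mal-A5 were lower in Asx0 and Mal-A2 was not called. Mal-A3 (FBgn0002571; 2R from 8455909 to 8457892) stood at 11.68, 11.27 and 11.11 in wild type and at 10.65, 10.47, 10.78, 10.46 and 10.74 in Asx0. Every mutant embryo was below every wild-type embryo, and the log2 difference was -0.73 (SE 0.12, limma adjusted p = 0.00279). Mal-A2, the next gene on the chromosome, stood at 10.19, 10.06 and 9.84 in wild type and at 10.07, 9.88, 10.19, 9.88 and 10.14 in Asx0. The ranges of the groups were nearly the same, and the log2 difference was 0.00 (SE 0.09, limma adjusted p = 0.991). Mal-A5 stood at 8.29, 8.48 and 8.56 in wild type and at 7.99, 8.19, 8.00, 8.24 and 8.20 in Asx0, a log2 difference of -0.32 (SE 0.08, limma adjusted p = 0.0316). Mal-A4 stood at 6.35, 6.54 and 6.10 in wild type and at 5.96, 5.95, 6.09, 6.08 and 6.03 in Asx0, a log2 difference of -0.31 (SE 0.08, limma adjusted p = 0.0400). Both genes kept the groups apart, Mal-A4 only barely, since its lowest wild-type embryo and its highest mutant embryo almost met. The call of Mal-A4 was lost on leaving out any embryo except wild-type embryo 3 (adjusted p up to 0.133), and that of Mal-A5 on leaving out Asx0 embryo 1 or 3 or wild-type embryo 2 or 3 (adjusted p up to 0.109). Mal-B1 and Mal-B2, which form a separate maltase pair on 2L, were not called in this table. Mal-B1 stood at 4.80, 5.09 and 5.21 in wild type and at 5.0, 4.99, 4.92, 4.96 and 4.95 in Asx0, and Mal-B2 at 5.29, 5.34 and 5.30 and at 5.41, 5.24, 5.21, 5.26 and 5.20. The groups overlapped in both genes, with log2 differences of -0.07 (limma adjusted p = 0.578) for Mal-B1 and -0.04 (limma adjusted p = 0.634) for Mal-B2. Wild-type embryo 1 was the lowest of all embryos for Mal-B1, and the log2 difference was -0.19 without it (limma adjusted p = 0.0299) and 0.01 without wild-type embryo 3 (limma adjusted p = 0.914).

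The 2 tested amylases were Amy-p and Amy-d, the proximal and the distal gene of a pair of near-identical copies, between which reads may have been split. Amy-p stood at 5.41, 5.11 and 5.33 in wild type and at 4.95, 5.01, 5.06, 4.93 and 4.91 in Asx0, a log2 difference of -0.31 (SE 0.06, limma adjusted p = 0.0101). Amy-d stood at 4.05, 4.12 and 4.40 in wild type and at 3.98, 4.0, 3.98, 3.98 and 4.02 in Asx0, a log2 difference of -0.20 that missed the threshold (SE 0.06, limma adjusted p = 0.0732). In both copies every Asx0 embryo was below every wild-type embryo. For Amy-d the difference was -0.27 (limma adjusted p = 0.0204) without wild-type embryo 1 and -0.09 (limma adjusted p = 0.115) without wild-type embryo 3.

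The alpha-mannosidases differed in direction. LManI (FBgn0032253; 2L from 10452677 to 10457241) was the member called higher in Asx0. It stood at 8.44, 8.54 and 8.31 in wild type and at 8.72, 8.73, 8.84, 8.79 and 8.83 in Asx0, with the groups apart and a log2 difference of 0.35 (SE 0.06, limma adjusted p = 0.00467). LManII, its neighbour on the chromosome, stood at 11.52, 11.62 and 11.38 in wild type and at 11.59, 11.47, 11.79, 11.75 and 11.89 in Asx0. These groups overlapped, and the log2 difference of 0.19 did not pass the test (SE 0.09, limma adjusted p = 0.219). LManIII stood at 6.83, 6.78 and 6.57 in wild type and at 6.33, 6.19, 6.20, 6.36 and 6.64 in Asx0, where embryo 5 overlapped with wild type. Its log2 difference of -0.38 (SE 0.10, limma adjusted p = 0.0314) lost its call on leaving out any 1 of Asx0 embryos 1 to 4 or of wild-type embryos 1 and 2 (adjusted p up to 0.107). LManIV beside it was not called (log2 difference -0.05, limma adjusted p = 0.679).

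**Figure D1:**
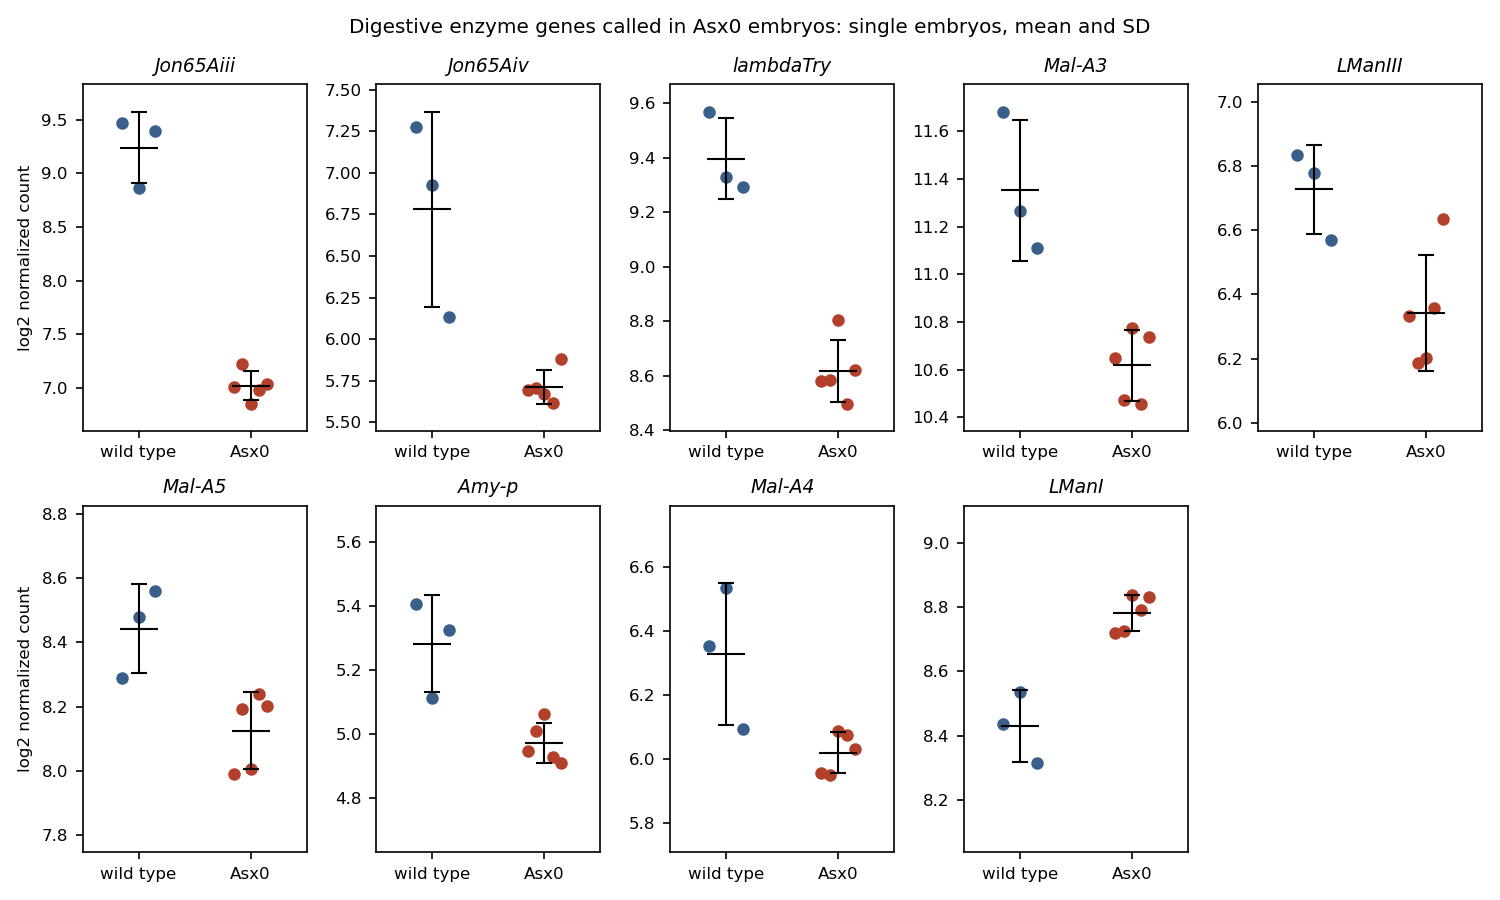
Log2 normalized counts of the 9 genes called in Asx0, for the 3 wild-type (blue) and 5 Asx0 (red) embryos, with group mean and SD; each panel has its own vertical axis, which does not start at 0. The groups are apart in every panel except LManIII, and LManI is the gene with mutants above wild type.

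In SceI48A embryos 7 of the 24 tested genes were lower than in their wild type and 1 was higher. The lower genes were the protease Jon65Aiii, the trypsin kappaTry, the maltases Mal-A2, Mal-A5, Mal-B1 and Mal-B2 and the amylase Amy-d, and the higher gene was the protease Jon25Biii. Only Jon65Aiii differed by more than 2-fold. Among all 10369 genes tested here, 4.39% were called lower and 3.1% higher, and 0.299% were called lower with a fold above 2. The share of tested members called lower was 29.17%, in the same list chosen with earlier results known. The median log2 difference of the 24 genes was -0.14, beside 0.00075 over all tested genes, and 22 of the 24 differences were negative. Without SceI48A embryo 2 the count of lower genes was 4. In 11 of the 24 genes every SceI48A embryo was below every wild-type embryo, and in 1 every SceI48A embryo was above, against 9.1% and 8.89% of all tested genes.

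The Jonah genes Jon65Aiii and Jon25Biii varied widely among SceI48A embryos. Jon65Aiii stood at 9.74, 9.62, 9.76 and 9.71 in wild-type embryos 1 to 4 and at 7.81, 8.29, 9.45 and 8.91 in SceI48A embryos 1 to 4. Mutant embryos 1 and 2 were far below wild type, whereas embryo 3 came near it, and the SD of 0.72 among the mutants was above that of 99.8% of tested genes. Its log2 difference was -1.09 (SE 0.26, limma adjusted p = 0.0281), and the call was lost when SceI48A embryo 2 or any 1 of the wild-type embryos was left out (adjusted p up to 0.0758). Jon25Biii (FBgn0031653; 2L from 4949941 to 4950767) stood at 5.30, 5.32, 5.31 and 5.32 in wild type and at 5.76, 6.33, 5.89 and 5.38 in SceI48A. All mutants were higher, but embryo 4 only slightly. The SD of the mutants was above that of 98.3% of tested genes, while the wild-type values were almost equal, with an SD below that of all but 0.241% of tested genes. The scale can draw values together, so this evenness need not hold for the read counts. The log2 difference of 0.53 (SE 0.14, limma adjusted p = 0.0455) lost its call on leaving out any embryo except SceI48A embryo 4 (adjusted p up to 0.101). Jon65Aiv stood at 4.86, 4.81, 4.81 and 4.86 in wild type and at 4.67, 4.71, 4.72 and 4.82 in SceI48A, with a log2 difference of -0.11 (limma adjusted p = 0.119). The fourth Jonah gene tested here, Jon44E, had a log2 difference of -0.07 (limma adjusted p = 0.418).

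kappaTry (FBgn0043471; 2R from 11337797 to 11338733) was the trypsin called in SceI48A. It stood at 8.30, 8.04, 8.05 and 8.22 in wild type and at 7.53, 7.50, 7.70 and 7.83 in the mutants, with no overlap and a log2 difference of -0.52 (SE 0.09, limma adjusted p = 0.00689). lambdaTry stood at 9.38, 9.25, 9.35 and 9.45 in wild type and at 8.76, 9.10, 9.26 and 9.01 in SceI48A. Embryo 3 reached the wild-type range, and the log2 difference of -0.32 missed the threshold (SE 0.10, limma adjusted p = 0.0770), with -0.40 (adjusted p = 0.0404) without that embryo and -0.23 (adjusted p = 0.128) without SceI48A embryo 1. The remaining trypsins had log2 differences from -0.23 for zetaTry to -0.05 for iotaTry, none of them called.

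The maltases were the class with most calls, 4 of 7. Mal-A2 (FBgn0002569; 2R from 8453627 to 8455782) stood at 9.42, 9.33, 9.37 and 9.34 in wild type and at 8.59, 8.77, 9.03 and 8.43 in SceI48A, a log2 difference of -0.66 (SE 0.11, limma adjusted p = 0.00489). Mal-A5 (FBgn0050359; 2R from 8462753 to 8465092) stood at 9.01, 9.28, 9.09 and 9.16 in wild type and at 8.11, 8.22, 8.65 and 8.65 in the mutants, a log2 difference of -0.73 (SE 0.13, limma adjusted p = 0.00522). Both genes had no overlap between the groups and a wider spread among the mutants than in wild type. Mal-B1 stood at 5.06, 4.97, 5.03 and 5.05 in wild type and at 4.78, 4.79, 4.82 and 4.77 in SceI48A, a log2 difference of -0.24 (SE 0.04, limma adjusted p = 0.00273). Mal-B2 stood at 6.52, 6.33, 6.23 and 6.31 in wild type and at 6.04, 6.13, 6.12 and 6.06 in SceI48A, a log2 difference of -0.26 (SE 0.07, limma adjusted p = 0.0344). The mutants of this pair of genes were tightly grouped below wild type. The call of Mal-B2 held only without wild-type embryo 3 among the 8 fits that left out 1 embryo (adjusted p up to 0.0751 in the others). Mal-A3 stood at 11.24, 11.14, 11.04 and 11.07 in wild type and at 10.12, 11.21, 11.05 and 10.57 in SceI48A. Mutant embryos 2 and 3 lay within the wild-type range and embryos 1 and 4 below it, and the log2 difference of -0.38 did not pass the test (SE 0.19, limma adjusted p = 0.230). Mal-A4 stood at 6.12, 6.34, 6.04 and 6.18 in wild type and at 5.96, 6.10, 6.10 and 6.09 in SceI48A, with overlap and a log2 difference of -0.11 (limma adjusted p = 0.372). Mal-A8 was not called (log2 difference -0.11, limma adjusted p = 0.0665).

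Amy-d stood at 4.27, 4.36, 4.43 and 4.32 in wild type and at 4.18, 4.20, 4.18 and 4.19 in SceI48A, a small but even log2 difference of -0.16 (SE 0.04, limma adjusted p = 0.0241). The mean normalized count of this gene was 20.4, and its call was lost without SceI48A embryo 2 or 3 or wild-type embryo 2 or 3 (adjusted p up to 0.0652). Amy-p stood at 5.25, 5.18, 5.48 and 5.10 in wild type and at 5.16, 5.08, 5.08 and 5.13 in the mutants, with overlap and a log2 difference of -0.14 (limma adjusted p = 0.227). None of the 4 mannosidases was called with limma in SceI48A, although 2 had an unadjusted p under 0.05. LManI, the gene higher in Asx0, stood at 8.37, 8.51, 8.24 and 8.48 in wild type and at 8.57, 8.34, 8.37 and 8.27 in SceI48A, with mixed groups and a log2 difference of -0.01 (limma adjusted p = 0.959). LManII stood at 11.45, 11.54, 11.49 and 11.58 in wild type and at 11.44, 11.32, 11.33 and 11.13 in SceI48A, where every mutant was below wild type by a narrow margin (log2 difference -0.21, limma adjusted p = 0.118). LManIII stood at 5.88, 5.85, 5.80 and 5.93 in wild type and at 5.66, 5.97, 5.65 and 5.72 in SceI48A, where embryo 2 was above all wild-type embryos (log2 difference -0.12, limma adjusted p = 0.332).

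**Figure D2:**
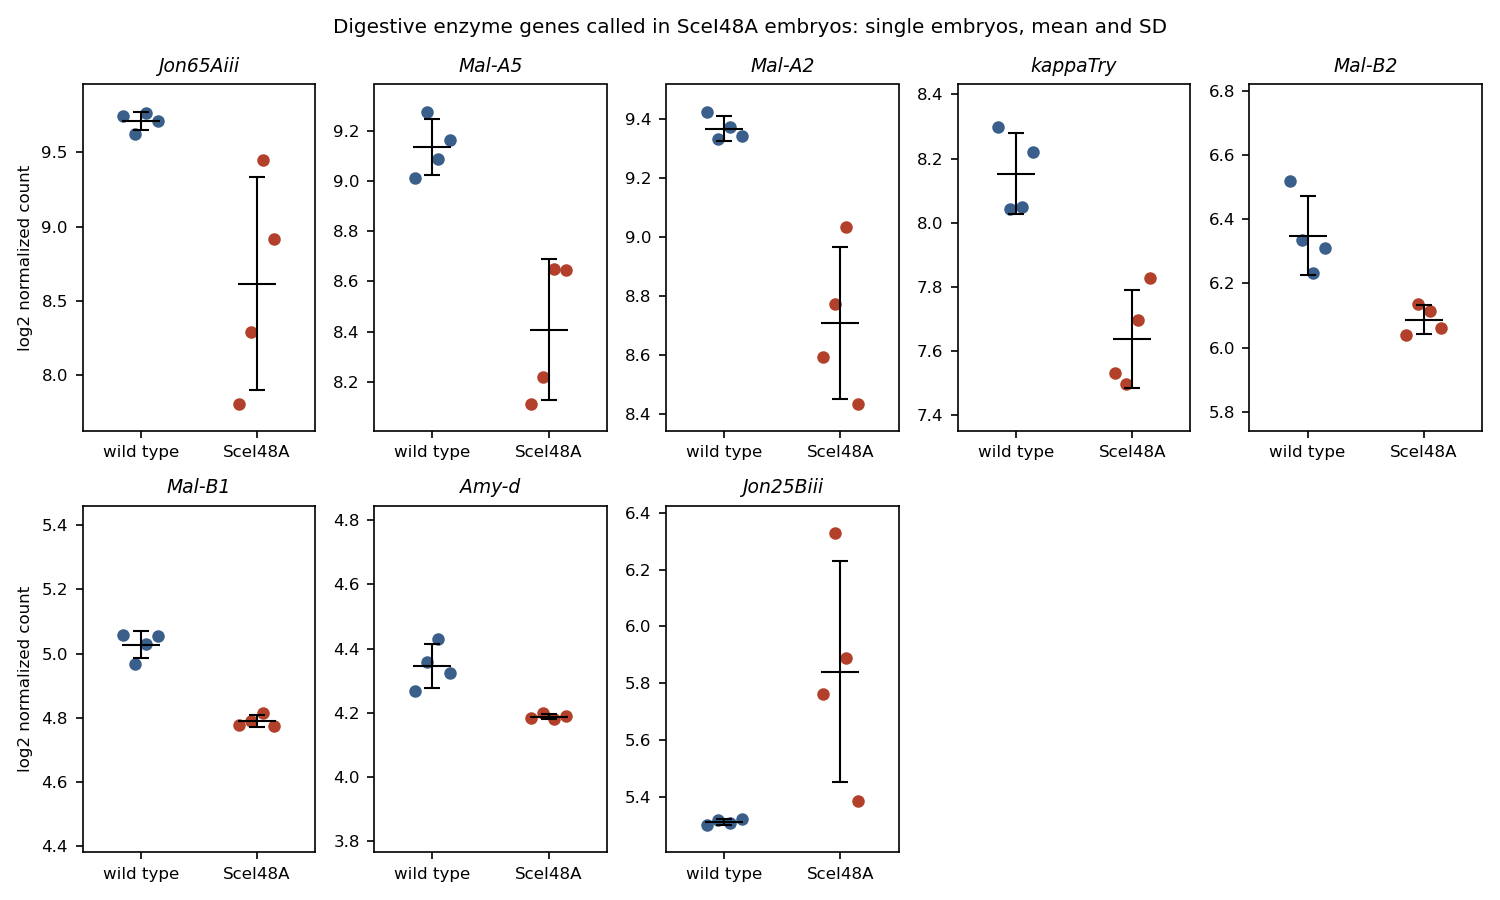
Log2 normalized counts of the 8 genes called in SceI48A, for the 4 wild-type (blue) and 4 SceI48A (red) embryos, with group mean and SD; each panel has its own vertical axis, which does not start at 0. Mutants of Jon65Aiii spread from 7.81 to 9.45 while the wild-type embryos lie together, and Jon25Biii is the gene with mutants above wild type.

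Lysozyme genes had few reads. Jon44E, Mal-A8 and LysX passed the filter only in the second comparison. LysX stood there at 3.84, 3.87, 3.86 and 3.88 in wild type and at 3.84, 4.12, 3.98 and 3.92 in SceI48A. Mutants 2 to 4 were above the wild-type embryos and mutant 1 was among them, and the log2 difference of 0.10 did not pass the test (SE 0.05, limma adjusted p = 0.201). The other 5 lysozyme genes had mean normalized counts under 10 in both tables. The same was true of Amyrel, Mal-A1, Mal-A6, Mal-A7, thetaTry, betaTry, gammaTry and deltaTry, and of 11 Jonah genes. Of the 27 members below the filter in the first comparison 2 had a mean of 0, and the means of the others ran from 0.244 to 8.93. In the second comparison 2 of 24 had a mean of 0, and the others ran from 0.124 to 6.87. On the log2 scale none of these genes varied by more than 0.24 over the embryos of a table, a scale on which low genes are strongly shrunken. Fitted without a filter, 25 of them gave 1 limma call in Asx0 and 22 gave 0 in SceI48A, where 2 had an unadjusted p under 0.05. The gene called was Jon44E, at 3.0, 2.99 and 3.11 in wild type and at 2.91, 2.91, 2.91, 2.91 and 2.93 in Asx0, with a log2 difference of -0.12 (SE 0.03, limma adjusted p = 0.0237). Its groups did not overlap. Reads of gammaTry and deltaTry, of LysB, LysD and LysE, and of Jon99Cii and Jon99Ciii may be split among near-identical copies.

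Of the 21 genes tested in both tables, Jon65Aiii and Mal-A5 were called lower in both, none was called higher in both and none was called in opposite directions. For Jon65Aiii the log2 difference was -2.22 in Asx0 and -1.09 in SceI48A, and for Mal-A5 it was -0.32 and -0.73. Another 7 genes were called only in Asx0 (Jon65Aiv, lambdaTry, Mal-A3, Mal-A4, Amy-p, LManIII and LManI) and 6 only in SceI48A (Jon25Biii, kappaTry, Mal-A2, Mal-B1, Mal-B2 and Amy-d). The remaining 6, LManII, LManIV, zetaTry, etaTry, iotaTry and alphaTry, were called in neither. The 2 comparisons share no embryos. Whether a gene's difference was unequal between the mutants was not tested, so a call in a single table does not show that the mutants differ.

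**Figure D3:**
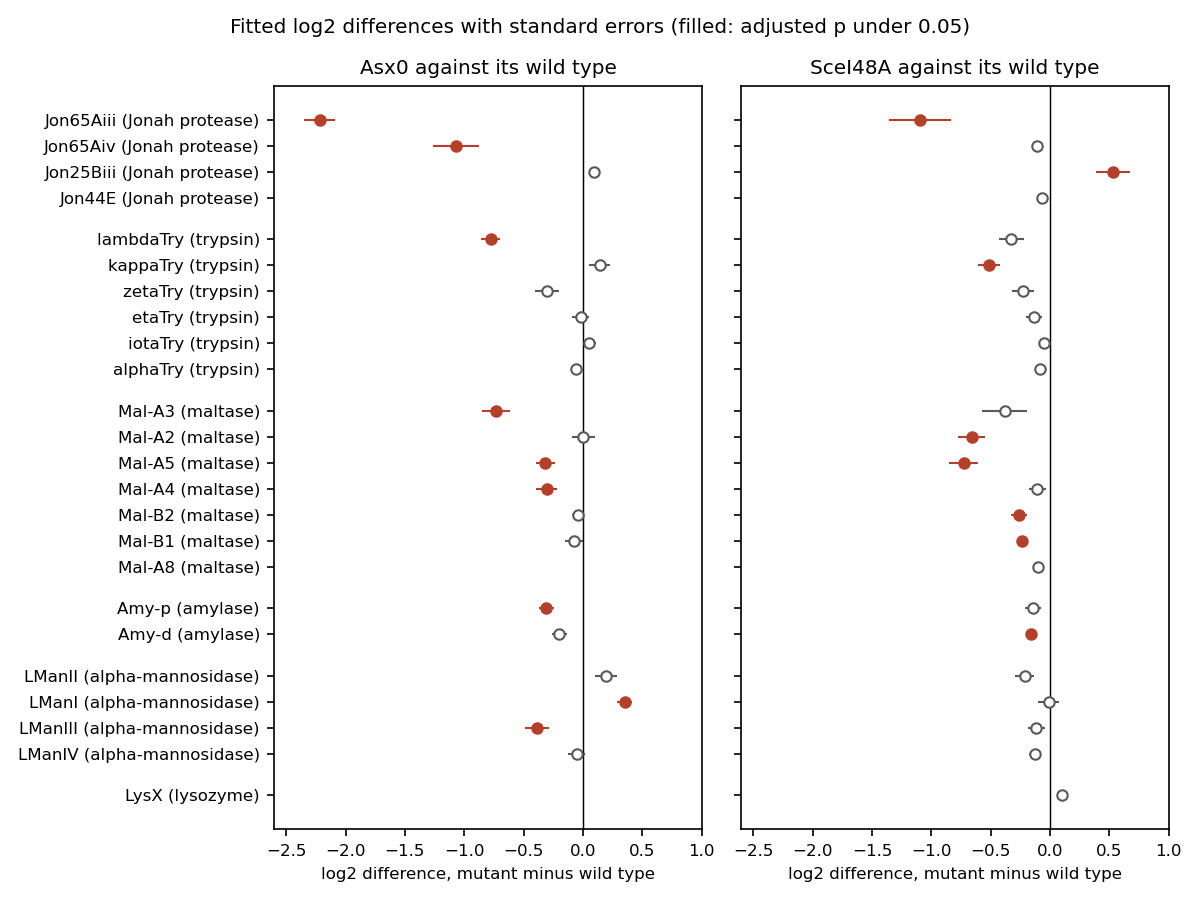
Log2 difference, mutant minus wild type, with its standard error for each tested member, ordered by enzyme class, in Asx0 (left) and SceI48A (right); filled points have a limma adjusted p under 0.05, and genes below the filter have no point. Jon65Aiii lies furthest to the left in both panels, at -2.22 and -1.09, and Mal-A2 is at 0.00 in Asx0 and at -0.66 in SceI48A.

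Within the tandem groups called and uncalled genes stood side by side. The 8 Mal-A genes occupy 24.3 kb of 2R from 8449664 to 8473961, and Mal-A2 and Mal-A3 stand side by side on opposite strands. Mal-A3 was called in Asx0 and Mal-A2 was not, and in SceI48A Mal-A2 was called and Mal-A3 was not. The 10 trypsin genes occupy 20.7 kb of 2R from 11336840 to 11357537, with lambdaTry called in Asx0 and the adjacent kappaTry in SceI48A. Of the uncalled partners, Mal-A3 and lambdaTry had log2 differences of -0.38 (SE 0.19) and -0.32 (SE 0.10) in SceI48A. In Asx0 Mal-A2 and kappaTry had log2 differences of 0.00 and 0.14. Differences between adjacent genes, or between the mutants, were not tested. The 4 Jon65A genes lie within 15.3 kb of 3L from 6039155 to 6054443. Jon65Aiii was called in both tables, Jon65Aiv only in Asx0, and the mean normalized counts of Jon65Ai and Jon65Aii were below the filter.

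Beside the Jon65A group yip7, tant and CG10472 were tested in Asx0, where 2 were lower, and tant, CG6592 and CG10472 in SceI48A, where 1 was lower. On the left of the group lies yip7, another serine protease gene (3L from 6035216 to 6036175). It stood at 7.62, 6.98 and 6.17 in wild type and at 5.70, 5.73, 5.80, 5.77 and 6.02 in Asx0 (log2 difference -1.12, SE 0.24, limma adjusted p = 0.0117). Its wild-type embryos had the same order as those of Jon65Aiv, with embryo 3 the lowest. On the right lies CG10472 (3L from 6061372 to 6062910), which was singled out after its values were seen. It stood at 9.69, 9.44 and 8.87 in wild type and at 8.25, 8.30, 8.35, 8.10 and 8.45 in Asx0 (log2 difference -1.05, SE 0.15, limma adjusted p = 0.00129). In the second table it stood at 9.30, 9.14, 9.09 and 9.01 in wild type and at 7.86, 8.53, 8.71 and 8.45 in SceI48A (log2 difference -0.74, SE 0.15, limma adjusted p = 0.0129). CG10472 thus had all mutants below wild type in both tables, with SceI48A embryo 1 the lowest as for Jon65Aiii. tant, which lies between CG10472 and the group, was not called in either table. In the second table yip7 was below the filter.

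LManV and LManVI, mannosidase genes on 2L directly beside LManIV that the rule does not take, were lower in SceI48A. LManV stood at 10.97, 10.88, 10.80 and 10.98 in wild type and at 9.05, 10.25, 9.50 and 9.82 in SceI48A (log2 difference -1.26, SE 0.19, limma adjusted p = 0.00266), all mutants being lower and widely spread. LManVI had a log2 difference of -0.43 (SE 0.08, limma adjusted p = 0.00656). In Asx0 the log2 differences were -0.43 for LManV (limma adjusted p = 0.118) and -0.27 for LManVI (limma adjusted p = 0.0607), and neither passed the test. Around the Mal-A group 4 other genes were tested. In Asx0 Cyp4e2 (log2 difference -0.79) and mtt (-0.38) were lower and Cyp4ad1 was higher (0.61). In SceI48A Cyp4e2 (-0.64), mtt (-0.55) and Cyp4ad1 (-0.49) were lower. At the trypsin group 5 neighbours were tested, of which 1 was higher and none lower in Asx0, and none was called in SceI48A. At the Jon25Biii group 6 were tested, with 0 called in Asx0 and 1 lower in SceI48A. At the lysozyme group 10 were tested, with 1 lower and 1 higher in Asx0 and 2 lower in SceI48A. Among all genes tested 6.15% were called lower and 5.19% higher in Asx0, and 4.39% and 3.1% in SceI48A.

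Other genes of the gut were called in both directions in Asx0. Median log2 differences in Asx0 and SceI48A were -0.26 and -0.12 for further midgut digestion genes. They were 0.60 and 0.08 for the peritrophic matrix and -0.17 and -0.17 for enterocyte structure. In SceI48A every tested gene of the digestion list had a negative difference. Of 9 further midgut digestion genes 6 were tested in Asx0. The serine protease genes yip7 and Ser6 (log2 difference -0.34, limma adjusted p = 0.0377) and Npc1b, which is needed for sterol uptake in the midgut (-0.66, limma adjusted p = 0.0016), were lower. The glycosidase gene tobi, known as a target of brain insulin signalling, was higher. It stood at 6.67, 6.67 and 6.80 in wild type and at 7.53, 7.38, 7.46, 7.51 and 7.70 in Asx0, a log2 difference of 0.80 (SE 0.07, limma adjusted p = 8.12e-05). In SceI48A tobi was the only called gene of 6 tested, at 5.03, 4.95, 4.98 and 4.88 in wild type and 4.76, 4.84, 4.82 and 4.81 in the mutants (log2 difference -0.16, limma adjusted p = 0.0384). Of genes of the peritrophic matrix, the chitin-lined sheet that separates food from the gut wall, Peritrophin-A was higher in Asx0 (log2 difference 0.45, limma adjusted p = 0.0199), 1 of 2 tested. In SceI48A 0 of 3 were called with limma, 1 with an unadjusted p under 0.05. Of 6 genes of enterocyte structure, Ssk, a component of smooth septate junctions, was lower in Asx0 (log2 difference -0.53, limma adjusted p = 0.0269) and none was called with limma in SceI48A, where 2 had an unadjusted p under 0.05.

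None of 11 transcription factor genes taken as gut regulators was called. All 11 of them (GATAe, srp, fkh, hkb, cad, byn, lab, Ptx1, nub, esg and pros) were tested with limma in both tables, with median log2 differences of -0.02 in Asx0 and 0.02 in SceI48A. Of these genes 3 in Asx0 and 6 in SceI48A had an unadjusted p under 0.05. Log2 differences ran from -0.14 for cad to 0.17 for pros in Asx0. In SceI48A they ran from -0.22 for lab to 0.37 for fkh (limma adjusted p = 0.0774). Every SceI48A embryo was above every wild-type embryo for byn, nub and srp, as for 8.89% of all tested genes. In Asx0 every mutant embryo was below wild type for nub, as for 10.3% of all tested genes. Several of these factors also act in other tissues of the embryo. Among all genes tested, 6.15% were called lower and 5.19% higher in Asx0, and 4.39% and 3.1% in SceI48A. Of 5 visceral muscle genes none was called with limma in Asx0, where 4 had an unadjusted p under 0.05, and Hand was lower in SceI48A (log2 difference -0.27, limma adjusted p = 0.0486).

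Genes of other tissues moved beside the enzymes. Of 5 salivary gland genes sage was higher in Asx0 (log2 difference 0.35, limma adjusted p = 0.0112), and none was called with limma in SceI48A, where 3 had an unadjusted p under 0.05. Of the fat body genes 2 of 4 tested were lower in Asx0 and 1 of 5 in SceI48A, with median log2 differences of -0.27 and 0.05. Adh was lower in Asx0 (-0.50, limma adjusted p = 0.003) and in SceI48A (-0.72, limma adjusted p = 0.0238), and Mtp was lower in Asx0 (-0.24, limma adjusted p = 0.0428). Of the haemocyte genes 2 of 6 tested were lower in Asx0 and 3 of 5 in SceI48A, with median log2 differences of -0.21 and -0.46. The phagocytosis receptor genes NimC1 and Sr-CI were lower in Asx0 (-0.50 and -0.92) and in SceI48A (-1.08 and -0.60), with Pxn lower in SceI48A too (-0.46). On leaving out single SceI48A or wild-type embryos, 2 to 4 genes of the midgut and other tissue lists were called in SceI48A, against 6 with all embryos. The log2 of the summed levels of the haemocyte list ran from 13.74 to 13.95 in Asx0 and from 13.73 to 13.92 in its wild type. It ran from 13.72 to 14.10 in SceI48A and from 14.13 to 14.17 in its wild type. Nplp2 and Pxn, the genes of the list with most reads, weigh most in this sum. Cuticle protein genes, whose RNA rises late in embryogenesis, had a mean log2 level of 9.31 to 9.51 in Asx0 and of 9.32 to 9.55 in its wild type, and of 8.85 to 9.14 in SceI48A and of 8.96 to 9.27 in its wild type. Of the cuticle genes 14 of 90 tested were lower and 4 higher in Asx0, and 13 of 85 lower and 1 higher in SceI48A. Among all genes tested 6.15% were lower and 5.19% higher in Asx0, and 4.39% and 3.1% in SceI48A. The cuticle level therefore need not be independent of genotype. With the cuticle level as a covariate all 9 calls of the first table were kept, and in the second Jon65Aiii (log2 difference -0.97, limma adjusted p = 0.0596) and Mal-B2 (-0.22, limma adjusted p = 0.0718) lost theirs. The part of the other tissues in the enzyme differences was not tested.

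Single embryos contributed unequally. Wild-type embryo 3 of the first table had the lowest wild-type value in 14 of the 21 tested members and embryo 1 the highest in 12. Among the SceI48A embryos, embryo 1 had the lowest value in 11 of 24 members, including Jon65Aiii, Mal-A3, Mal-A5 and lambdaTry, and it also had the lowest level of LManV and CG10472.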

How the data were processed

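Poly(A) RNA of 16 single embryos was sequenced. The authors' methods state Salmon for transcript quantification, sums over genes and DESeq2 for testing. The submitters' processing notes name dm6, Salmon, DESeq2 and deepTools without versions. The deposited tables hold 1 log2 normalized count for each gene and embryo. How it was normalized is not described, and it behaves like a regularized logarithm. The authors' tables also hold the mean normalized count (a signal averaged over a table's embryos) and their own fold changes, errors, test statistics and p-values, which were not used.

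Members were found by symbol. 32 of 13754 gene IDs had no symbol. Coordinates and exon lengths are those of annotation 6.54 of dm6. limma 3.58.1 in R 4.3.3 (lmFit and eBayes with a variance trend, two-sided, Benjamini-Hochberg over all genes tested) was fitted to the log2 values of each table, with no pseudocount, for genes whose mean normalized count reached 10. The step was tested on simulated data. A fold above 2 was read from the fitted difference. Genes within 25 kb of each other in a class formed a group. Replicates are separate embryos. Members called in either table and the most abundant member of each class were given with all values. The members and lists were chosen with earlier results of these data known. The alternatives comprised fits without a filter or with a minimum mean of 50, robust variances, no variance trend, embryo weights, quantile normalization, median centring, covariates from cuticle genes and from msl-2 and Sxl, the replicate number as a block, and each embryo left out in turn.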

Additional observations from a re-analysis of the deposited data

Results flagged for a closer look

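In 4 members a single SceI48A embryo stood apart from the other 3, which lay close together on the log2 scale. Mal-A4 was low in embryo 1 (5.96, others 6.09 to 6.10), etaTry was high in embryo 3 (6.37, others 6.17 to 6.18), Mal-A8 was high in embryo 4 (3.83, others 3.80 to 3.81) and alphaTry was high in embryo 3 (3.35, others 3.34). The gaps in Mal-A8 and alphaTry were small in absolute size. All 21 tested members were examined in the Asx0 embryos, and all 24 in the SceI48A embryos and again in their wild type. The 3 wild-type embryos of the first table were too few for this. No member was marked outside the SceI48A embryos. Chance marks about 5% of groups in this way. The glycosidase gene tobi was higher in every Asx0 embryo than in wild type (log2 difference 0.80) and lower in every SceI48A embryo (-0.16). The difference between the mutants was not tested.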

How the results depend on the processing

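No called result changed direction under any alternative run. Uncalled members with log2 differences near 0 changed sign on leaving out single embryos: in Asx0 Mal-A2 ran from -0.0914 (without wild-type embryo 3) to 0.0809, etaTry from -0.0839 to 0.0503 (without wild-type embryo 1), LManIV from -0.101 to 4.27e-05 (without wild-type embryo 1) and Mal-B1 from -0.189 to 0.0149 (without wild-type embryo 3), and in SceI48A LManI ran from -0.0711 to 0.0292 (without SceI48A embryo 4). LManI was also at 0.0276 with quantile normalization. In Asx0 the calls of Jon65Aiii, Jon65Aiv, lambdaTry and Mal-A3 held under each alternative run, and in SceI48A so did those of Mal-A2, Mal-A5 and kappaTry. The call of Mal-B1 in SceI48A held in each run that tested it. Its mean normalized count of 32.1 kept it out of the run with a minimum mean of 50. Leaving out single embryos, the number of lower members ran from 5 to 8 in Asx0 and from 4 to 6 in SceI48A, the number of higher members from 1 to 2 and from 0 to 1, and the number of called genes in the lists of other midgut and tissue genes from 8 to 11 (11 with all embryos) and from 2 to 4 (6 with all embryos). The lower members were fewest without Asx0 embryo 1 or 3 or wild-type embryo 2 in Asx0 and without SceI48A embryo 2 in SceI48A. The genes of the other lists in SceI48A were 2 without SceI48A embryo 2 or any 1 wild-type embryo and 3 without SceI48A embryo 1. The median over the members moved to -0.30 in Asx0 and to -0.24 in SceI48A at a mean of at least 50, and to -0.031 in SceI48A without a filter. In SceI48A the higher members fell to 0 without a filter, with robust variances and without a variance trend, all through Jon25Biii, and the called genes of the other lists fell to 3 without a filter and to 2 with the cuticle covariate. With robust variances Jon65Aiii also lost its call (adjusted p = 0.0999). With the msl-2 and Sxl covariate, taken as a level of sex, Amy-p (adjusted p = 0.0542) and LManIII (adjusted p = 0.0756) lost theirs in Asx0. In that fit 749 genes were called in all, against 1158 without the covariate. The level of msl-2 minus Sxl was -3.94, -2.39 and -3.90 in wild-type embryos 1 to 3. In Asx0 embryos 1 to 5 it was -3.69, -2.53, -2.40, -2.37 and -2.45. This level was unevenly spread over the groups, so it is partly confounded with genotype.

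Replicate numbers did not pair the embryos: same-numbered embryos had correlations of deviations between -0.089 and 0.156 in the first table and between -0.13 and 0.107 in the second. Not every embryo correlated best with its own number. With the replicate number as a block, 6 members were lower and 0 higher in Asx0, with 654 genes called in all, and 5 were lower and 1 higher in SceI48A, with 446 genes called in all and 3 genes of the other lists. The block changed the calls of Mal-A4, Amy-p and LManI in Asx0 and of Amy-d and Mal-B2 in SceI48A.

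The depth is unknown. The shrunken scale limits what can be seen in low genes, and without a filter 1 member below it, Jon44E, was called, in Asx0 (log2 difference -0.12, limma adjusted p = 0.0237).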
